A study of Mus musculus with 8 samples.

Results

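The osteoclast-like fusion genes described here are *Dcstamp*, *Ocstamp*, *Acp5*, *Ctsk*, *Nfatc1* and *Atp6v0d2*, 6 of the 23356 genes of an expression table from mouse dendritic cells. They were picked by name as genes of cell fusion and osteoclast differentiation, with their values in this table already known, so their levels and differences stand as descriptions and none was tested. The study asked which transcripts respond when microtubules are taken apart, and whether the response needs GEF-H1, a guanine nucleotide exchange factor that is held on microtubules and is encoded by *Arhgef2*. Bone marrow-derived dendritic cells (BMDCs) on a C57BL/6 background (C57BL/6N in the methods of the study), grown for 6 days with GM-CSF and IL-4 at 10 ng/ml each, came either from wild-type (WT) or from Arhgef2-/- mice (GEF-H1-/- here). Cells of each genotype were left untreated (control) or received 100 nM of ansamitocin-P3 (AP3), a tubulin-binding drug that destabilizes microtubules, for 5 h. RNA was sequenced from 8 libraries, 2 in each of the 4 groups. The labels do not give the structure of the *Arhgef2* allele or say how many mice stand behind a pair of libraries, and the cells were a bulk culture of floating and loosely attached cells.

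Osteoclasts are the bone-resorbing cells of the myeloid lineage and form when mononuclear precursors fuse. The cytokine RANKL acts through its receptor RANK, together with M-CSF and receptors that signal through ITAM adaptors, to raise AP-1 and NF-κB activity and then NFATc1, the master transcription factor of the lineage. NFATc1 switches on the multipass membrane proteins DC-STAMP and OC-STAMP, which cells need for fusion, and the machinery of resorption, in which a V-ATPase acidifies the space over bone, the protease cathepsin K digests collagen and the tartrate-resistant acid phosphatase TRAP is the classical stain. DC-STAMP was first described in dendritic cells, and IL-4 also drives macrophages to fuse into giant cells, so these genes are not restricted to bone.

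The table gives 1 FPKM per gene and group (fragments per kilobase of transcript, scaled to the fragments sequenced, a level that is corrected for length), into which Cuffdiff had combined both libraries, with a 95% interval from its own error model. No value of a single library is part of this table. Values therefore carry no SD, no n and no p, and an interval of Cuffdiff is not the spread between duplicates. Differences are log2 ratios of FPKM + 1, with 95% bounds propagated from the intervals, and a difference over 1 or under -1 is called past the limit. *Arhgef2* itself had 42.3 FPKM (interval 34.5 to 50.0) in control WT and 4.59 (3.54 to 5.63) in control GEF-H1-/- cells, and at 45.9 (36.9 to 54.9) and 4.16 (3.22 to 5.11) with AP3. In bulk RNA, more cells that carry a transcript and more of the transcript per cell cannot be told apart.

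The 6 genes lay on 6 chromosomes and fell into 3 patterns over the 4 groups. *Dcstamp* was higher with AP3 in both genotypes. *Ocstamp*, *Acp5*, *Ctsk* and *Atp6v0d2* had higher values in GEF-H1-/- than in WT DCs with or without the drug, though the intervals of *Acp5* overlapped in control cells. *Nfatc1* was level in all groups. Between centred log2 profiles, *Ocstamp* and *Atp6v0d2* were the closest pair of members (Euclidean distance 0.412 over 4 groups) and *Dcstamp* and *Ctsk* the farthest (2.77). All 6 passed the filter of 1 FPKM in at least 1 group, as did 11397 genes in all.

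**Figure D1:**
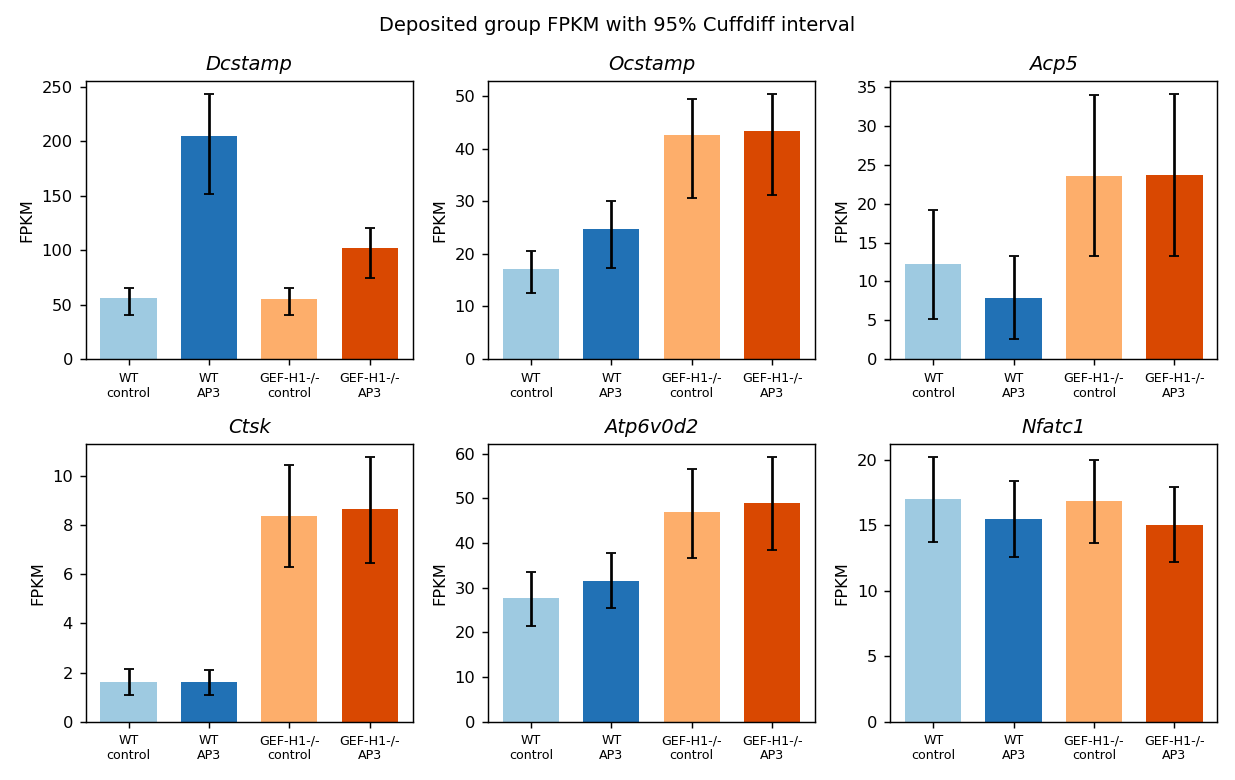
Group FPKM (vertical axis, from 0, a separate scale for each gene) of the 6 genes in control and AP3-treated WT and GEF-H1-/- cells, where a bar is the deposited value of 2 combined libraries and the line its 95% Cuffdiff interval. The tallest *Dcstamp* bar is treated WT at 205 FPKM, *Ctsk* stands at 1.61 to 1.62 FPKM in WT and 8.36 to 8.65 in GEF-H1-/- cells, and the *Nfatc1* bars run from 15.0 to 17.0 FPKM.

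Of the fusion proteins, *Dcstamp* (chromosome 15, 39745932 to 39760934, GRCm38, plus strand, with 3 or 4 exons in its coding transcripts) was the highest member in every group. Its level was 55.7 FPKM (interval 40.6 to 65.6) in control WT and 205 (152 to 243) in treated WT DCs. In GEF-H1-/- cells it was 55.6 (40.5 to 65.3) in control and 102 (74.8 to 120) in treated cells. The control groups thus coincided, and the treated groups stood apart from their controls and from each other with no overlap of intervals. The difference with AP3 was 1.87 (bounds 1.41 to 2.32) on the log2 scale in WT, a 3.69-fold higher FPKM, and 0.86 (0.41 to 1.31), or 1.83-fold, in GEF-H1-/- cells. In WT it ranked 93rd from the top of the 11397 genes and in GEF-H1-/- cells 130th. The drug difference was smaller in GEF-H1-/- cells, at a difference of -1.002 (-1.64 to -0.37) between genotypes. That value and the gap between treated genotypes, -1.004 (-1.45 to -0.55), sit on the limit, and both fell short of it when the groups were rescaled to their median ratio, at -0.996 and -0.99.

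*Ocstamp* (chromosome 2, 165395450 to 165400394, minus strand, 3 exons), whose product has the same role in fusion, did not share that pattern. It was at 17.2 FPKM (12.5 to 20.6) in control WT, 24.7 (17.3 to 30.1) in treated WT, 42.6 (30.6 to 49.5) in control GEF-H1-/- and 43.4 (31.2 to 50.3) in treated GEF-H1-/- cells. Both WT levels lay below both GEF-H1-/- levels, with no overlap of intervals between genotypes. The genotype difference was 1.26 (0.81 to 1.71) in control cells, 2.47-fold in FPKM, and 0.79 (0.31 to 1.26) with AP3. With the drug it differed by 0.50 (0.02 to 0.98) in WT, where the intervals of control and treated cells overlapped, and by 0.03 (-0.41 to 0.47) in GEF-H1-/- cells. In control WT DCs *Dcstamp* was above *Ocstamp* by 55.7 against 17.2 FPKM with separate intervals, whereas in control GEF-H1-/- cells *Dcstamp*, *Atp6v0d2* and *Ocstamp* ran from 55.6 to 42.6 FPKM and each overlapped the next.

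The transcription factor *Nfatc1* (chromosome 18, 80606205 to 80713071, minus strand) was at 17.0 FPKM (13.8 to 20.2) in control WT, 15.5 (12.6 to 18.4) in treated WT, 16.8 (13.6 to 20.0) in control GEF-H1-/- and 15.0 (12.2 to 17.9) in treated GEF-H1-/- cells. All 4 intervals overlapped. Its differences ran from -0.15 to -0.01 over the 4 comparisons between groups, and the widest bounds, between control genotypes, were -0.38 to 0.35. A difference of the size seen for *Ctsk* between genotypes or for *Dcstamp* with AP3 in WT lies outside the bounds of *Nfatc1* in the same comparison. FPKM says nothing on the amount or the nuclear entry of the protein, through which NFATc1 is also controlled.

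*Ctsk*, the gene of cathepsin K (chromosome 3, 95499286 to 95509362, plus strand, 8 exons), was the lowest member and had the largest genotype difference. It was at 1.62 FPKM (1.08 to 2.15) in control WT and 1.61 (1.08 to 2.12) in treated WT DCs. In GEF-H1-/- cells it was at 8.36 (6.28 to 10.4) in control and 8.65 (6.46 to 10.8) in treated cells. The genotypes were apart in both conditions and the drug left each level where it was, within -0.01 and 0.04 on the log2 scale. The genotype difference was 1.84 (1.40 to 2.27) in control cells and 1.89 (1.45 to 2.32) with AP3, or 5.15-fold and 5.38-fold in FPKM, 35th and 38th from the top of all genes tested. At so low a level in WT the log2 difference moves with the pseudocount, from 1.01 with 5 FPKM to 2.30 with 0.1 FPKM in control cells, and the direction does not.

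*Acp5*, the gene of TRAP (chromosome 9, minus strand), was at 12.2 FPKM (5.21 to 19.2) in control WT, 7.89 (2.53 to 13.2) in treated WT, 23.6 (13.3 to 33.9) in control GEF-H1-/- and 23.7 (13.3 to 34.1) in treated GEF-H1-/- cells. Its values ran in the same order as those of *Ctsk*, but its intervals spanned 87.4% to 136% of the FPKM, against a median of 45.2% to 45.5% over genes above 1 FPKM. The genotypes overlapped in control cells, with a difference of 0.90 (-0.08 to 1.87), and with AP3 the upper bound of WT, 13.23 FPKM, lay just under the lower bound of GEF-H1-/-, 13.28 FPKM, with a difference of 1.47 (0.41 to 2.53). The difference with the drug in WT, -0.57 (-1.73 to 0.59), did not clear its bounds. Cuffdiff placed *Acp5* in a locus of chromosome 9 from 22055460 to 22389206 that 15 genes of the table share, while the gene itself runs from 22126727 to 22135711 in the GENCODE annotation. Whether the shared locus widened the intervals was not tested.

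*Atp6v0d2*, the d2 subunit of the V-ATPase that osteoclasts use and that is also needed for their fusion (chromosome 4, 19876838 to 19922566, minus strand), was at 27.7 FPKM (21.5 to 33.5) in control WT, 31.6 (25.3 to 37.8) in treated WT, 47.0 (36.6 to 56.5) in control GEF-H1-/- and 48.9 (38.5 to 59.2) in treated GEF-H1-/- cells. The genotypes did not overlap in either condition, at differences of 0.74 (0.32 to 1.17) and 0.61 (0.21 to 1.02), both under the limit of 1. With AP3 it differed by 0.18 in WT and 0.06 in GEF-H1-/- cells, inside the bounds of each. Its paralog *Atp6v0d1*, the subunit found in most cells, was higher per length and went the other way between genotypes. *Atp6v0d1* was at 122 FPKM in control WT and 105 in control GEF-H1-/- cells, with overlapping intervals.

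RefSeq windows of the 250 bases before a start site (GRCm38.p6) were matched for 2 of the 6 members, *Ctsk* and *Acp5*, with 1 start site for *Ctsk* and 3 for *Acp5*. *Nfatc1* was left out of this lookup, so its windows were not examined. *Ctsk* and *Acp5* are shown because they were the members matched, not for their levels. They were also the members with the largest genotype differences in treated cells. Capitals mark matches on either strand to PU.1 (GAGGAA), NFAT (TGGAAA) and M-box (TCATGTG, bound by the MITF family) letters, and AP-1 (TGANTCA) and E-box (CACGTG) letters were searched too. Marked matches do not overlap each other. The windows are chr3:95498960-95499209 on the plus strand for *Ctsk* and chr9:22130599-22130848 on the minus strand for *Acp5*.
Ctsk: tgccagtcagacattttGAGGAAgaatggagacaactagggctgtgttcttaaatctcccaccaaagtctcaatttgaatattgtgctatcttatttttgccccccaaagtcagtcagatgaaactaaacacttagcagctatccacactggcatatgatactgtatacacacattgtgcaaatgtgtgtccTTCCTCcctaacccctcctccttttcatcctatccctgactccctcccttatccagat
Acp5: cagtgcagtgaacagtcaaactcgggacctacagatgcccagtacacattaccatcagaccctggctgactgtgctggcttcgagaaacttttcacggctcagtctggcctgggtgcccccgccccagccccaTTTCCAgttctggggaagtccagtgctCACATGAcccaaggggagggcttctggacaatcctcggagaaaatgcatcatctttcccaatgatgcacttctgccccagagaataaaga
The *Ctsk* window has PU.1 letters at 233 and 58 bases before the start site, and no other match. The *Acp5* window has NFAT letters at 117 and M-box letters at 90 bases before the start site, and the other 2 *Acp5* windows have none of the 5 motifs. The *Acp5* window shown is thus the 1 of 3 with a match, and 10 of its bases lie in an annotated exon. Of all 32851 windows, 23.3% hold the PU.1 letters, 18.6% NFAT, 6.75% AP-1, 6.02% E-box and 3.25% M-box. Letters of this length are common, and a match is not a bound site.

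**Figure D2:**
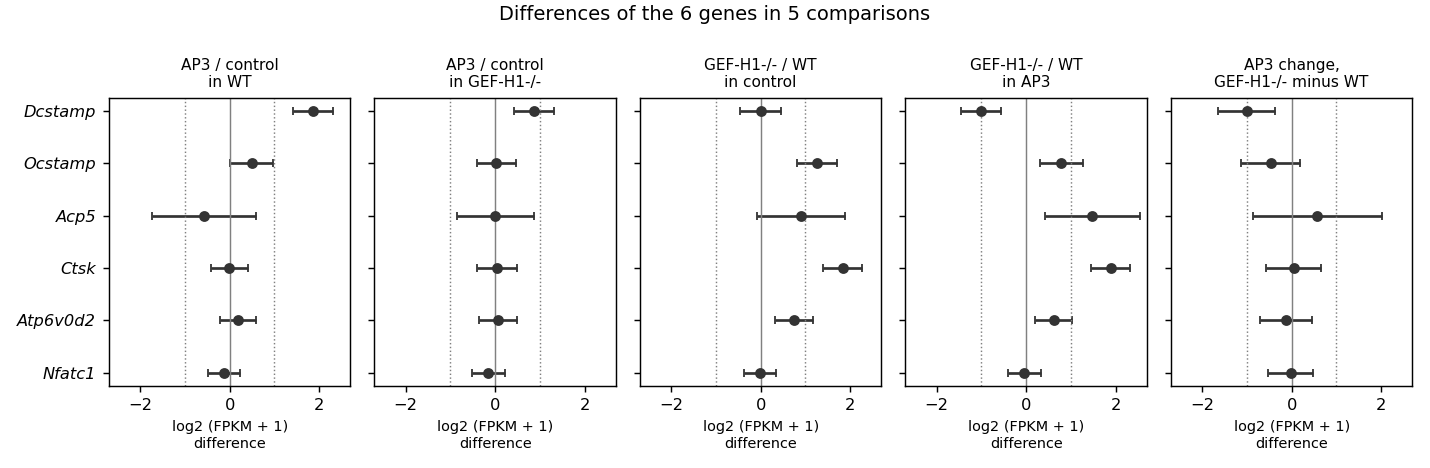
Difference in log2(FPKM + 1) (horizontal axis) of the 6 genes (rows) in 5 comparisons, with points for the values, lines for 95% bounds propagated from the Cuffdiff intervals, a solid line at 0 and dotted lines at -1 and 1. *Dcstamp* lies at 1.87 in the first panel and near 0 in the third, and *Ctsk* near 0 in the first and at 1.84 in the third.

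Counted over the members, 1 of 6 lay past the limit upwards with AP3 in WT (*Dcstamp*) and 0 downwards, where 3.66% of all genes tested lay above and 1.28% below the limit. In GEF-H1-/- cells 0 of 6 lay past it, against 0.807% above and 0.272% below. Control GEF-H1-/- against control WT DCs had 2 of 6 higher (*Ocstamp* and *Ctsk*) and 0 lower, with 1.26% of all genes higher and 0.614% lower. In treated cells 2 of 6 were higher in GEF-H1-/- (*Acp5* and *Ctsk*) and 1 lower (*Dcstamp*), with 2% of all genes higher and 2.06% lower. For the difference between the drug effects 1 of 6 was below the limit, *Dcstamp*, and 0 above it, with 1.36% of all genes below and 0.535% above. By separation of intervals, AP3 had 1 of 6 higher in WT (9.19% of all genes higher, 7.58% lower) and 1 of 6 higher in GEF-H1-/- cells (2.75% higher, 0.956% lower), *Dcstamp* each time, and 0 lower. Between control genotypes 3 of 6 were higher, *Ocstamp*, *Ctsk* and *Atp6v0d2*, and 0 lower, against 2.86% and 1.88% of all genes. Between treated genotypes 4 of 6 were higher, with *Acp5* added, and *Dcstamp* was lower, against 7.02% and 6.73%. The median difference of the 6 between control genotypes was 0.82 (all genes -0.01), and 0.70 (all genes -0.03) between treated genotypes. The median with AP3 was 0.09 in WT and 0.04 in GEF-H1-/- cells (all genes 0.00 and -0.01). The comparisons share groups, the members were chosen on these columns, and nothing about the genes as a set follows from the counts.

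Related genes were read from lists that also had earlier results behind them. Upstream of NFATc1, the receptor RANK (*Tnfrsf11a*) was at 4.78 FPKM in control WT and 4.91 in treated WT, 5.17 in control and 5.08 in treated GEF-H1-/- cells, a range well within each interval. Its ligand RANKL (*Tnfsf11*) stayed under 1 FPKM in all groups, from 0.617 to 0.987. The decoy receptor osteoprotegerin (*Tnfrsf11b*) was at 1.06 FPKM in control and 2.85 in treated WT, and 0.681 and 1.13 in GEF-H1-/- cells. With AP3, 3.66% of all genes tested were past the limit upwards in WT and 0.807% in GEF-H1-/- cells. Of the 14 genes of RANK, M-CSF and ITAM signalling that passed the filter, out of 16, 2 were past the limit upwards with AP3 in WT DCs and 0 in GEF-H1-/- cells. These were *Csf1*, the gene of M-CSF, at 32.3 FPKM in control and 176 in treated WT against 54.8 and 86.1 in GEF-H1-/- cells, and the kinase *Src*, at 6.23 and 15.6 against 9.33 and 13.6. The M-CSF receptor *Csf1r* was lower with AP3, at 84.9 and 58.7 FPKM in WT and 91.3 and 78.2 in GEF-H1-/- cells, with overlapping intervals.

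Among activating transcription factors, 4 of the 15 that passed, out of 16, were past the limit upwards with AP3 in WT and 2 in GEF-H1-/- cells, with 0 downwards in each. Of all genes tested, 3.66% and 0.807% were past it upwards, and 1.28% and 0.272% downwards. The AP-1 factor *Fosl2* was at 23.2 and 112 FPKM in WT and 19.2 and 54.6 in GEF-H1-/- cells, and *Jun* at 28.0 and 99.05, and 28.4 and 76.6. The NF-κB genes *Nfkb1* and *Rela* were past the limit in WT only. *Nfkb1* was at 111 and 228 FPKM in WT and 95.3 and 125 in GEF-H1-/- cells, and *Rela* at 30.3 and 72.0, and 31.2 and 50.0. The AP-1 factor *Fos*, without which osteoclasts do not form, was low, between 2.17 and 3.58 FPKM. PU.1, listed under its older symbol *Sfpi1*, was at 279 FPKM in control WT and 286 in control GEF-H1-/- cells. Between control genotypes 0 of these 15 were past the limit in either direction, where 1.26% of all genes lay above and 0.614% below it. The repressor *Irf8*, which holds back osteoclast differentiation, was at 18.8 and 96.8 FPKM in WT and 24.8 and 103 in GEF-H1-/- cells. It was the 1 of 7 repressors past the limit with AP3 in each genotype, against 3.66% and 0.807% of all genes upwards. *Id3*, another repressor, was lower in GEF-H1-/- cells, at 20.4 against 41.4 FPKM in control and 13.7 against 31.1 in treated cells, and its intervals were apart in both conditions.

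Of NFATc1's relatives, *Nfatc2* was at 11.7 and 11.4 FPKM and *Nfatc3* at 20.7 and 20.1 in control WT and control GEF-H1-/- cells. *Nfat5*, the member of the family that calcineurin does not control, was at 8.06 and 6.25 FPKM there, with overlapping intervals, and had 13.4 FPKM in treated WT and 10.3 in treated GEF-H1-/- cells, apart from its control in both genotypes. With AP3 in WT *Nfatc2* was at 7.76 FPKM, below its control interval. Of 7 NFAT and calcineurin genes that passed, out of 8, none was past the limit in any of the 5 comparisons. The share of all genes past it in 1 direction of a comparison ran from 0.272% to 3.66%. The calcineurin inhibitor gene *Rcan1*, a known NFAT target, lay between 7.39 and 9.24 FPKM.

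Other fusion factors were mostly higher with AP3 and near level between control genotypes. With AP3 in WT, 11 of 13 that passed, out of 14, had values above control, and 2 were past the limit, the protease *Adam8* and the tetraspanin *Cd9*. Of all genes tested, 3.66% were past it upwards. *Adam8* was at 168 and 463 FPKM in WT and 200 and 298 in GEF-H1-/- cells, and *Cd9* at 400 and 835, and 422 and 533. The median difference of the 13 was 0.61 in WT and 0.33 in GEF-H1-/- cells, and between control genotypes it was -0.07, with none past the limit. The medians of all genes were 0.00, -0.01 and -0.01. Between control genotypes, 1.26% of all genes lay above the limit and 0.614% below it. The tetraspanin *Cd81* was higher in control GEF-H1-/- cells, at 46.2 against 26.9 FPKM, and of the 13 it and the low *Sh3pxd2a*, at 0.513 against 0.269 FPKM, had separate intervals there. Of all genes, 2.86% had separate intervals upwards between control genotypes.

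Resorption genes split. The gelatinase *Mmp9* was higher in GEF-H1-/- cells and level with the drug, like *Ctsk*, at 66.7 and 74.3 FPKM in WT and 138 and 147 in GEF-H1-/- cells. *Mmp14* was at 4.46 FPKM in control WT and between 11.6 and 12.8 in the other 3 groups. Carbonic anhydrase 2 (*Car2*), which supplies the protons of resorption, had the opposite order, at 39.0 and 61.8 FPKM in WT and 21.0 and 24.5 in GEF-H1-/- cells. Integrin β3 (*Itgb3*), with which osteoclasts hold on to bone, was at 25.4 and 79.9 FPKM in WT and 24.9 and 26.3 in GEF-H1-/- cells, with drug differences of 1.61 and 0.08. Between control genotypes 2 of the 10 that passed, out of 12, were past the limit upwards, *Mmp9* and *Mmp14*, and 0 downwards. Of all genes, 1.26% and 0.614% were. By sign, 3 of the 10 were higher and 7 lower there, with a median of -0.09, and *Car2* had separate intervals downwards. Between treated genotypes 0 of the 10 were past the limit upwards and 2 downwards, *Itgb3* and *Car2*, against 2% and 2.06% of all genes.

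Other V-ATPase subunits and other cathepsins were nearer to level than *Atp6v0d2* and *Ctsk* between control genotypes. Of 18 V-ATPase subunits that passed, out of 24, differences ran from -0.40 to 0.17 with a median of -0.01, and no intervals were apart, against 0.74 for *Atp6v0d2*. Of 12 other cathepsins that passed, out of 13, differences ran from -0.64 to 0.81 with a median of 0.21, against 1.84 for *Ctsk*. *Ctsg* had the largest of these, 0.81, at 27.7 and 49.4 FPKM in control WT and control GEF-H1-/- cells. *Ctsb* was at 146 and 221 FPKM there and *Ctsl* at 47.3 and 73.4 FPKM. The intervals of *Ctsg*, *Ctsb* and *Ctsl* were apart, 3 of the 12 cathepsins, all upwards. Of all genes, 2.86% had intervals apart upwards and 1.88% downwards between control genotypes. *Ctss*, the main cathepsin of antigen presentation, was at 697 and 794 FPKM with overlapping intervals.

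**Figure D3:**
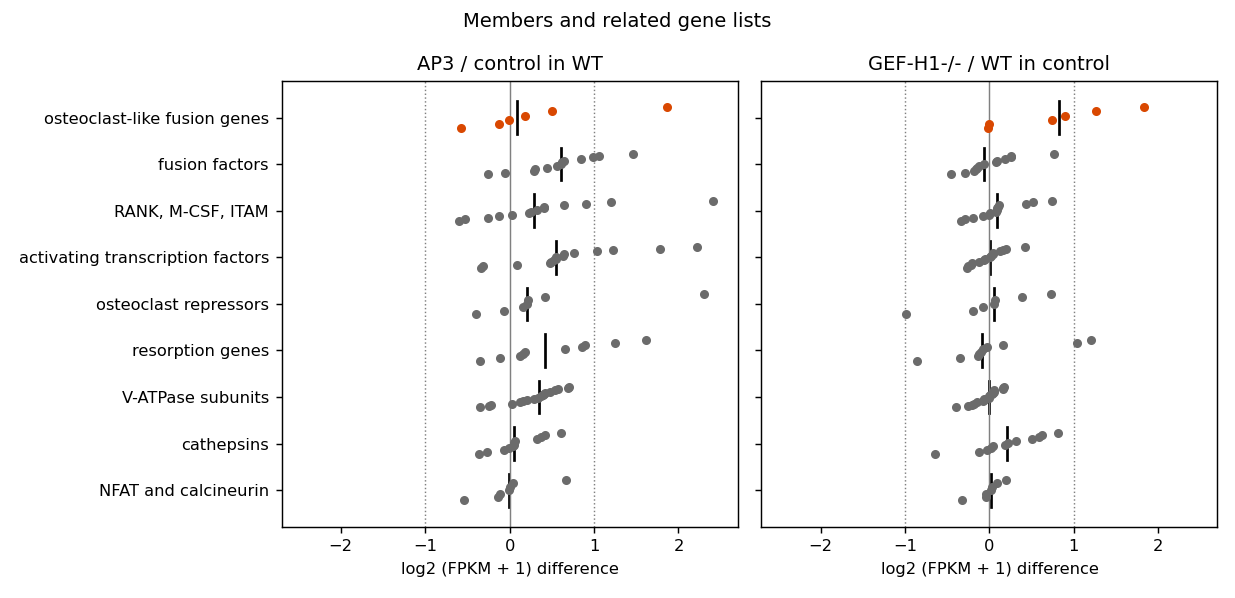
Difference in log2(FPKM + 1) (horizontal axis) of each gene that passed the filter in the members (orange) and 8 related lists (grey), with AP3 in WT DCs (left) and between control genotypes (right). Black ticks are medians, at 0.09 and 0.82 for the members and at 0.61 and -0.07 for other fusion factors.

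The label osteoclast-like was checked against genes that mark mature osteoclasts. The calcitonin receptor *Calcr*, the defining one, was listed at 0 in all 4 groups and the receptor *Oscar* lay at 0.0715 to 0.0948 FPKM. *Mmp9*, *Itgb3*, *Car2* and *Tcirg1* were all present, but other myeloid cells express them. Dendritic cell markers were all present at unequal levels. *Cd74* lay between 3073 and 4935 FPKM, *H2-Ab1* between 506 and 633, *Ccr7* between 234 and 602 and *Itgax* between 102 and 175. The lineage factor *Zbtb46* lay between 9.09 and 22.1 FPKM, *Ciita* between 9.56 and 23.4 and *Flt3* between 1.07 and 2.63. The label osteoclast-like thus names what these genes are known for, and the cells carried the markers of dendritic cells and lacked a value above 0 for the calcitonin receptor. In this bulk culture macrophage and neutrophil markers were present as well, with *Csf1r* between 58.7 and 91.3 FPKM and *Cd68* between 79.9 and 120. The 7 dendritic cell markers summed to 4708 FPKM in WT without and 6327 with AP3, and to 3970 and 4453 in GEF-H1-/- cells, sums made up mostly of *Cd74*. With AP3 in WT 4 of the 7 were higher and 3 lower, with separate intervals upwards for *Ccr7* and downwards for *Flt3* and *Ciita*. Between control genotypes 2 were higher and 5 lower in GEF-H1-/- cells, with no intervals apart. The 6 osteoclast markers summed to 207 FPKM in WT without and 298 with AP3, and to 268 and 273 in GEF-H1-/- cells. Of the 4 that passed the filter, 2 had larger values in GEF-H1-/- cells without drug (*Mmp9* and *Tcirg1*) and 2 smaller. With AP3 only *Mmp9* was larger there and 3 were smaller. Between untreated genotypes the sum followed *Mmp9*, at 66.7 FPKM in WT and 138 in GEF-H1-/- cells, while *Car2* was at 39.0 and 21.0. The largest rise with AP3 in WT was that of *Itgb3*, from 25.4 to 79.9 FPKM.

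Markers of other cells moved with the genotype, as did *Ocstamp*, *Ctsk*, *Atp6v0d2* and *Acp5*. Of 7 macrophage markers, 6 had a higher value in GEF-H1-/- than in WT cells without drug, with a summed level of 299 against 230 FPKM and with *C1qa* at 29.2 against 4.22. With AP3 all 7 were higher in GEF-H1-/- cells, with sums of 269 and 175 FPKM. All 4 basophil and mast cell markers were higher, with sums of 356 against 183 FPKM in control and 341 against 189 in treated cells, and *Fcer1a* at 33.5 against 6.25 in control cells. All 5 neutrophil markers in the table were lower, with sums of 21723 against 32375 FPKM in control and 22141 against 38243 in treated cells, and *Camp* at 15.0 against 189 in control cells. These sums were made up mostly of *S100a8* and *S100a9*. The FPKM of *S100a8* lay above the upper bound of its own interval in every group. *S100a9*, at 10004 against 10678 FPKM in control cells, had overlapping intervals. Fibroblast and osteoblast markers were low, with sums of 7.60 against 4.23 FPKM, *Col1a2* at 1.96 against 0.0895 and *Bglap* listed at 0. T and B cell markers summed to 9.38 against 13.7 FPKM and erythroid markers stayed under 1 FPKM in sum. The part of these cells in the genotype differences of the 4 members was not tested. *Dcstamp* and *Nfatc1* were level between the control genotypes, and the part of these cells in their levels was not tested either.

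**Figure D4:**
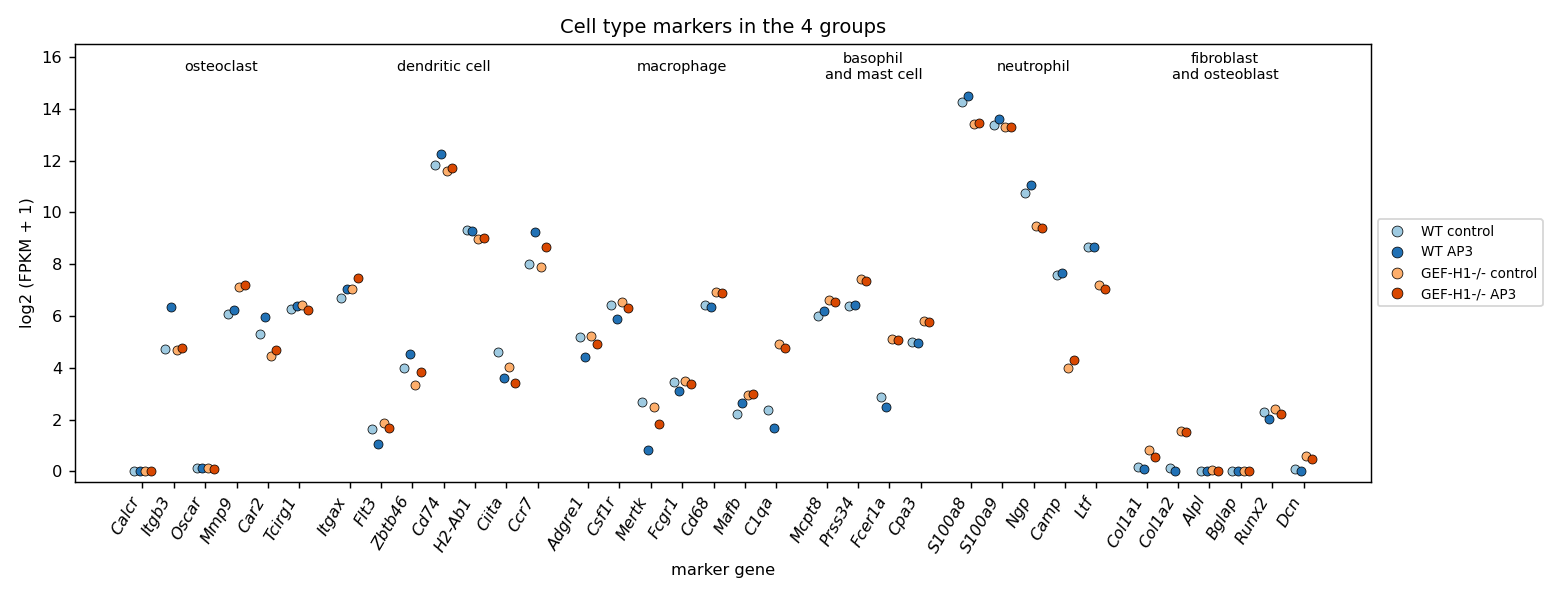
Level as log2(FPKM + 1) (vertical axis) of the marker genes of 6 cell types (horizontal axis) in the 4 groups (colours). *Calcr* sits at 0 in every group, *C1qa* and *Fcer1a* are higher and *Camp* lower in both GEF-H1-/- groups.

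The genes most like each member over the 4 groups were found as those with the smallest distance between centred log2 profiles, among 8816 genes of at least 5 FPKM in some group. For *Dcstamp* these were *S1pr3* (distance 0.0935), a sphingosine 1-phosphate receptor, and *Rnf19b* (0.144). For *Ocstamp* they were *Ctla2a* (0.105) and *Itga2b* (0.147), for *Atp6v0d2* *Il18r1* (0.0936) and *Bag2* (0.120), and for *Ctsk* *Mucl1* (0.129) and *Gpnmb* (0.186). *Gpnmb*, which encodes the lysosomal glycoprotein osteoactivin, was at 21.1 and 20.5 FPKM in WT and 68.3 and 69.2 in GEF-H1-/- cells. For *Acp5* they were *Ms4a2* (0.0587), the β chain of the high-affinity IgE receptor of mast cells and basophils, at 5.97 and 3.84 FPKM in WT and 12.7 and 12.1 in GEF-H1-/- cells, and *Pus7* (0.146). *Nfatc1* had *Pick1* (0.00269) and *Brd3* (0.00347) nearest, as many level genes lie close to it. With 4 points per profile such likeness is a description only.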

How the data were processed

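Gene expression was measured by RNA-seq in 8 libraries of mouse BMDCs (2 per group, 4 groups). The authors made strand-specific libraries from polyadenylated RNA, sequenced paired ends and computed FPKM with Cuffdiff (version 1.05 per the labels, genome mm10). The aligner and annotation of this table are not given in the sources used here. The deposited FPKM and their 95% bounds are 1 set per gene and group, with libraries combined. WT columns name no genotype and were assigned by elimination. No per-sample column was left unused (0).

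The members and gene lists were chosen with earlier results of these data known. Of 23356 genes, 107 without an OK status were dropped, and 11397 reached 1 FPKM in at least 1 group. Log2 ratios of FPKM + 1 and SE propagated from the bounds (width over 2 times 1.96) were computed with pandas 2.3.3 and NumPy 2.4.6. The design's limma branch needed single libraries and was not run. Library depth was not determined, so no counting interval is given. Sums of FPKM were 599331 to 739523, and median-ratio factors 0.995 to 1.00. Named genes were the members, *Arhgef2*, list genes past a log2 limit of 1, close paralogs, markers and the 2 nearest profiles of each member, and *Tnfrsf11a*, *Tnfsf11*, *Tnfrsf11b*, *Csf1r*, *Fos*, *Spi1*, *Cd81*, *Rcan1*, *Ctsb* and other list genes were added after their values were seen. Gene spans and exons came from GENCODE M21 (GRCm38), and table loci were shifted to start at base 1.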

Additional observations from a re-analysis of the deposited data

How the results depend on the processing

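The counts of members past the limit upwards were the same in every comparison and alternative run, namely a pseudocount of 0.1 or 5 FPKM, a filter at 5 FPKM or none at all, rescaling to the median ratio and, for the 4 comparisons between groups, separate intervals. *Dcstamp*, the only member past it downwards, gave a count of 1 that became 0 with a pseudocount of 5 FPKM and with rescaling, for treated GEF-H1-/- against treated WT DCs and for the genotype by drug difference alike. Of 175 single-gene values under alternatives, 1 changed sign, that of *Dcstamp* between control genotypes (-0.002 as reported and 0.006 when rescaled), and 6 moved beyond their bounds, all of *Ctsk* or *Arhgef2* with another pseudocount. Counts over all genes moved more. With 0.1 and 5 FPKM they were 956 and 318 for AP3 in WT (563 as reported), 212 and 77 in GEF-H1-/- cells (123), 372 and 101 between control genotypes (214), 801 and 206 between treated genotypes (463) and 387 and 123 for the genotype by drug difference (216). With separate intervals required, the 123 became 70. No paired analysis was possible because the columns carry no replicate number, and leaving out a replicate was not run for the same reason. The difference of *Acp5* between control genotypes has bounds that include 0, and without depth or single libraries it was not tested.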
